A study of Mus musculus with 188 samples.

Results

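DNA copy number was compared between single mid-S-phase cells of a haploid and a diploid mouse embryonic stem cell (mESC) line. The cells were chosen by their S-phase progression, which is the percentage of autosomal 50 kb bins called replicated in the cell. A cell entered the comparison when this percentage was at least 40% and under 60%. Of the 138 cells with values, 25 of 75 haploid and 46 of 63 diploid cells met this rule, 71 in all. The haploid line, H129-2, is of strain 129 and carries 1 set of chromosomes. The diploid line, F121-9, is a hybrid with 1 homolog of each chromosome from 129 and 1 from Castaneus. Both lines grew in N2B27 medium with 2i inhibitors and LIF, which keeps mESCs in a naive state, and single cells were sorted by DNA content after DAPI staining. The comparison therefore sets ploidy, genetic background, cell line and any batch of the line against each other at once, and these cannot be told apart.

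A mammalian genome replicates in large domains that follow a fixed temporal order. Domains rich in active genes tend to replicate early in S phase, and gene-poor domains attached to the nuclear lamina tend to replicate late. A bin that has replicated has a higher copy number than a bin that has not, so the profile of 1 cell in mid S phase separates its early from its late domains. In a haploid cell every bin has a single copy before replication. In a diploid cell the copy number averages both homologs, and reads over strain variants are needed to see a homolog that is ahead of the other.

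Each measurement is a binarized state, 0 for unreplicated and 1 for replicated, or a smoothed score without a fixed unit, in a 50 kb bin of mm10. The score is relative within a cell. After bins without values were left out, 45112 autosomal bins were used. In a diploid cell a state is held for each homolog and the mean was taken. The read depth behind each cell is unknown. The labels give each cell a well but name no plate and no culture, so each line counts as 1 sample here, and a plate row means the wells of a line that share a letter. The SD is the spread over cells, no p-value is given, and intervals for shares of cells are exact 95% Clopper-Pearson intervals that cover only the counting of cells.

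Progression itself was fixed by the choice of cells and is given as a description. It ranged from 41.04% in haploid well A8 to 59.6% in well C3, with a median of 53.6% and a mean of 53.3% ± 4.91 (SD, n = 25). In the diploid cells it ranged from 40.9% in well E10 to 59.96% in well G7, with a median of 54.7% and a mean of 53.3% ± 5.24 (SD, n = 46). Well G7 thus lay just inside the window. Just outside lay haploid wells A6 at 38.7% and F12 at 62.8%, and diploid wells F8 at 39.5% and G10 at 60.4%. The lines thus overlapped throughout the window and had the same mean progression to 3 digits.

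**Figure D1:**
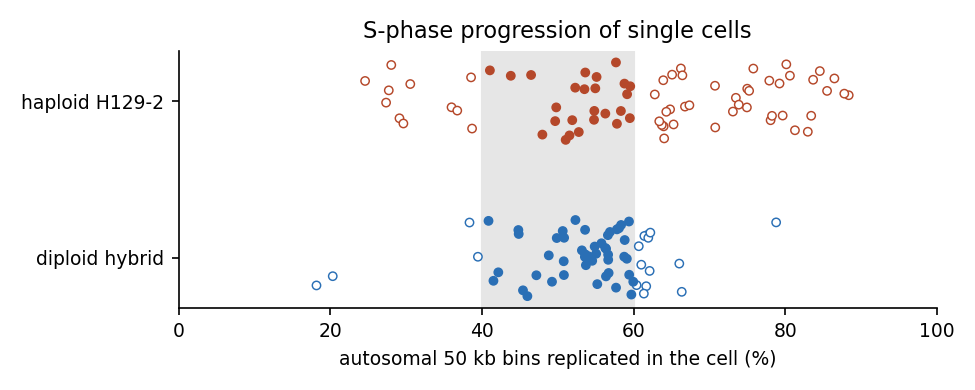
Percentage of autosomal 50 kb bins replicated in each cell, with 1 point per cell and the lines on separate rows; the shaded band is the window from 40% to under 60% and filled points are the 71 cells inside it. The vertical scatter within a row has no meaning. The 25 haploid and 46 diploid cells fill the same window, both with a mean of 53.3%.

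Across the genome, the cells of both lines had replicated largely the same bins. The share of cells with a bin replicated had a Pearson r of 0.944 between the lines over 45112 bins, a description over neighbouring bins that are not independent. The haploid minus diploid difference in this share had a median of 0 percentage points, and 5% to 95% of bins lay between -24.4 and 20.96 points. It stayed under 10 points in 70.7% of bins and reached 20 points in 12.6%. At least 90% of the cells had replicated 33.8% of bins in the haploid line and 32.9% in the diploid line, and 28.6% of bins were in both sets. At most 10% of the cells had replicated 26.1% and 26.9% of bins, with 22.3% in both sets. At the very ends the lines were less alike. In the haploid line 22.6% of bins had replicated in all 25 cells and 14.1% in none. In the diploid line 5.90% had replicated in all 46 cells and 7.74% in none. Such sets can only shrink as cells are added.

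Some bins had the same state in all 71 cells. These were 2246 bins, 4.98% of all, that had replicated in every cell, and 2229 bins, 4.94%, that had replicated in none. The bins replicated in every cell held 18.1 protein-coding gene starts per Mb and had a median GC content of 46.3%. The bins replicated in no cell held 1.18 gene starts per Mb and had a median GC content of 37.1%. Over all bins the values were 8.58 gene starts per Mb and 41.4%. In mid-S-phase cells of both lines, gene-rich and GC-rich DNA was thus at the replicated end and gene-poor DNA at the unreplicated end.

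The genes named for these stretches were chosen after their values were seen. The longest stretch replicated in every cell was 3.55 Mb long, on chromosome 2 from 153350001 to 156900000. It overlaps 82 protein-coding genes, among them Dnmt3b, a de novo DNA methyltransferase, and E2f1, a transcription factor of the G1 to S transition. The next was 2.40 Mb on chromosome 9, from 61400001 to 63800000, with Smad3, a transducer of TGF-beta signals, and Map2k5 among 19 genes. Another, of 1.45 Mb on chromosome 4 from 107400001 to 108850000, spans Orc1, the largest subunit of the origin recognition complex. The longest stretch that had replicated in no cell was 2.35 Mb on chromosome 4, from 36200001 to 38550000, and overlaps a single protein-coding gene, Lingo2, a neuronal membrane protein. On chromosome 1, 2.10 Mb from 114850001 to 116950000 with Cntnap5a, a neurexin-like adhesion gene, was unreplicated in every cell.

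Between these ends lay 3915 bins, 8.68% of all, that 30% to 70% of the cells had replicated in both lines. Their median GC content was 41.3%, close to that of all bins, and they held 5.43 gene starts per Mb. The longest stretch of this kind was 1.45 Mb on chromosome 3, from 52250001 to 53700000, with Foxo1, a target of insulin and PI3K signals. Haploid cells had replicated 56.7% of it and diploid cells 44.1%. A stretch of 1.15 Mb on chromosome 5, from 106150001 to 107300000, held Cdc7, the kinase that activates replication origins. It was 53.9% replicated in haploid and 54.9% in diploid cells.

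**Figure D2:**
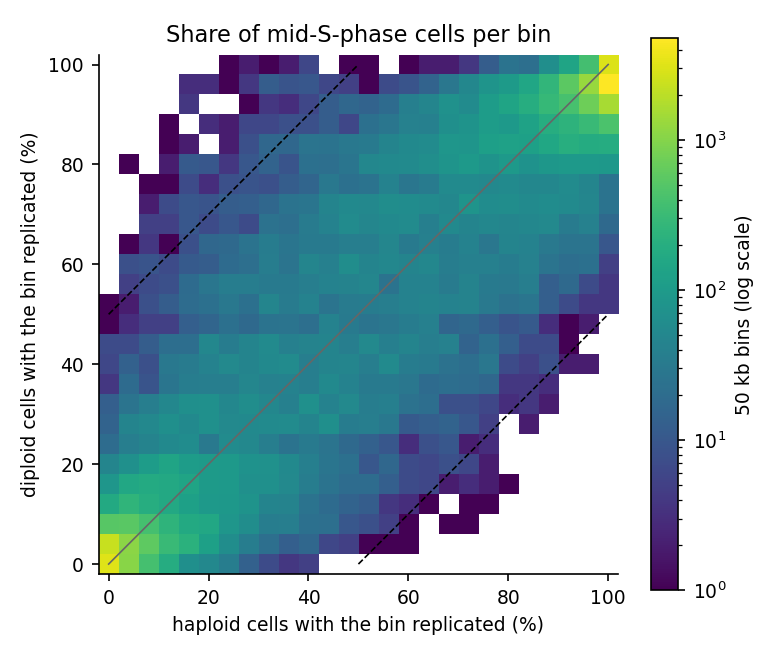
Share of the 25 haploid cells (horizontal axis) and of the 46 diploid cells (vertical axis) with a bin replicated, both in percent; colour gives the number of 50 kb bins on a log scale. The solid line marks equal shares and the dashed lines a difference of 50 percentage points. Most of the 45112 bins lie along the solid line, and 44 bins lie on or beyond the lower dashed line against 270 on or beyond the upper one.

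The order of replication was then compared along a schedule made only from the cells outside mid S phase, on an S phase taken as 10 h. Bins scheduled in the first hour were replicated in 98.0% ± 1.43 of haploid cases and 97.3% ± 3.02 of diploid cases (SD over cells, n = 25 and n = 46). Bins scheduled from 5 to 6 h were replicated in 50.1% ± 11.1 and 50.7% ± 13.7 of cases. In the last hour the shares were 1.09% ± 0.869 and 1.25% ± 1.49. In each hour of the schedule the lines differed by less than 2 percentage points, with the largest difference of -1.82 points from 4 to 5 h. In each hour the SD over cells was larger in the diploid than in the haploid line. The mean course through S phase was thus shared. The SD over bins of the line difference was 22.05 points from 5 to 6 h against 2.81 points in the last hour. This contrast is partly fixed by the level of the shares. Shares near 1.09% leave little room for a difference, and the counting of cells spreads shares near 50.1% most.

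Variation within a cell was measured as T_width, the time between 25% and 75% of bins replicated on a sigmoid fitted to the states of the cell against time from schedule. Unlike above, the schedule for T_width and for bins far from schedule used all other cells of both lines, those in mid S phase included. In haploid cells T_width ranged from 1.71 h in well F10 to 2.36 h in well C3, with a median of 2.08 h. In diploid cells it ranged from 1.18 h in well E5 to 3.19 h in well A6, with a median of 1.83 h. The means were 2.09 ± 0.156 h (SD, n = 25) and 1.91 ± 0.475 h (SD, n = 46), and the difference of 0.173 h was smaller than the pooled SD of 0.395 h. The lines did not separate by their means but differed in spread: the diploid SD was 3.05 times the haploid SD, with 18 diploid cells below the lowest and 9 above the highest haploid cell. Leaving out 1 cell of each diploid pair whose scores had an r above 0.5, described below, left the diploid SD at 0.474 h (n = 44).

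The cell with the widest T_width in each line, haploid well C3 and diploid well A6, had the lowest SD of the score over bins of their lines, 0.598 and 0.604. This did not hold for every wide cell: diploid wells H8 and D10, next in T_width at 3.10 and 2.86 h, had SDs of 0.708 and 0.824, the latter the highest of the line. Across cells, T_width and this SD had an r of -0.637 in the haploid line (n = 25) and -0.464 in the diploid line (n = 46), a description of cells of 1 line each. The SD of the score was 0.694 ± 0.0258 in haploid and 0.729 ± 0.0477 in diploid cells. The part of signal in the spread of T_width was not tested.

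Bins far from their schedule were rare in both lines. Of the bins scheduled more than 1.5 h after the present time of the cell, 5.28% ± 1.63 were already replicated in haploid cells (SD, n = 25), with a range of 2.83% to 8.81%. In diploid cells the share was 4.76% ± 2.96 (SD, n = 46), with a range of 0.844% to 12.3%. Of the bins scheduled more than 1.5 h before that time, 4.72% ± 1.27 were still unreplicated in haploid and 5.17% ± 3.76 in diploid cells. Both differences were smaller than the spread over cells. Again the diploid cells reached further on both sides, with 15 below and 6 above the haploid range for bins ahead of schedule.

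Pairs of cells gave a measure that does not depend on the schedule. By the study's methods, cells whose states resembled those of no other cell had been removed beforehand, more of them diploid than haploid. The part of that removal in the values of pairs and in the spreads of the lines was not tested. Any 2 haploid cells disagreed at 18.03% ± 1.64 of bins (SD, 300 pairs), and the pairs ranged from 14.9% to 24.9%. Any 2 diploid cells disagreed at 18.7% ± 3.997 of bins (SD, 1035 pairs), from 7.32% to 32.04%. A haploid and a diploid cell disagreed at 19.6% ± 2.81 of bins (SD, 1150 pairs). States placed at random would disagree at 49.7%. Pairs across the lines thus disagreed at 1.25 percentage points more of the bins than the mean of pairs within the lines, which is less than the spread over pairs. All 25 haploid cells and 45 of 46 diploid cells were nevertheless farther on average from the other line than from their own.

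The wide range among diploid pairs came with pairs at both ends. Wells C1 and G3 disagreed at 7.32% of bins, wells C5 and F7 at 8.68% and wells C12 and F11 at 12.02%. After the mean of the line was taken from each profile, their scores had an r of 0.598, 0.490 and 0.837. The highest r among haploid pairs was 0.0967, between wells A8 and C1. At the other end, diploid well A6 disagreed with its own line at 25.7% of bins on average, against at most 20.5% for any haploid cell. Whether the similar pairs share an origin was not tested.

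Copy number shifts, the places where the state changes between neighbouring bins, were as frequent in both lines. A haploid cell had 942.8 ± 83.3 shifts (SD, n = 25), with a range of 747 in well C12 to 1101 in well D9. A diploid cell had 938.1 ± 91.05 shifts per homolog (SD, n = 46), with a range of 704 in well D10 to 1189 in well A6. Replicated runs had a median length of 1500.0 kb in the median haploid cell and 1525 kb in the median diploid cell. Unreplicated runs were 1450 kb and 1400.0 kb long. The difference of 4.63 shifts was far below the spread over cells and changed sign in 6 of 24 alternatives.

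**Figure D3:**
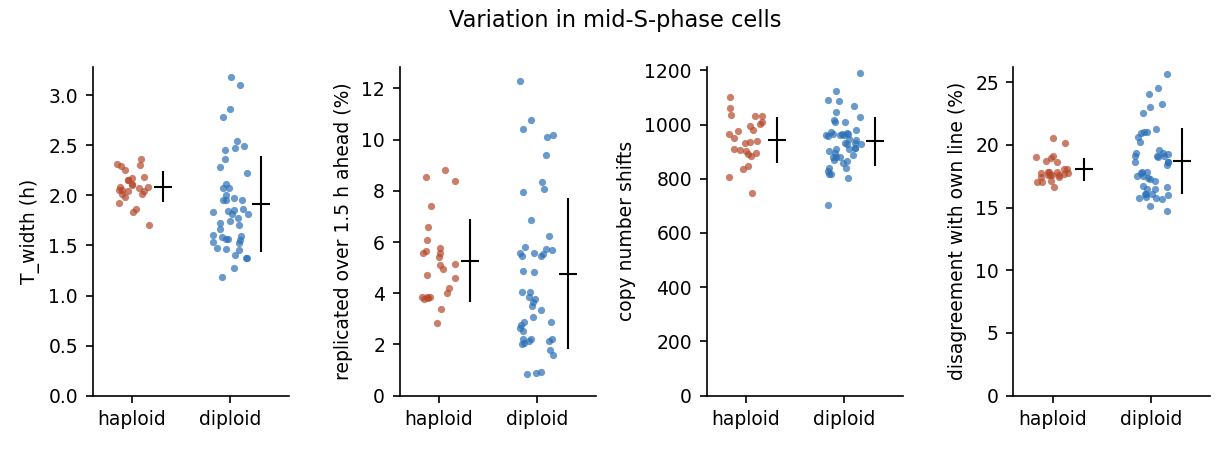
From left to right, T_width in h, bins replicated more than 1.5 h ahead of schedule in percent, copy number shifts per cell, and mean disagreement with the other cells of the same line in percent of bins; each point is a cell and the bars give mean ± SD over 25 haploid and 46 diploid cells. All axes start at 0. The means lie close together in every panel, and the diploid points spread more widely for all but the shifts, for which the SDs were 83.3 and 91.05.

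By chromosome, the haploid cells showed the stronger contrast. On chromosome 11, the most replicated autosome of both lines, 71.3% ± 3.73 of bins were replicated in haploid cells and 62.6% ± 6.46 in diploid cells (SD, n = 25 and n = 46). On chromosome 3, the least replicated autosome of both lines, the shares were 39.7% ± 6.01 and 47.8% ± 4.78. Over 19 autosomes the haploid means covered a range of 31.6 percentage points and the diploid means 14.8 points, with the chromosomes in a like order (r = 0.951 over 19 chromosomes). Haploid means were the higher ones on 9 autosomes, and on chromosomes 3 and 11 alone the lines differed by more than the pooled SD over cells.

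The contrast also held cell by cell. The share on chromosome 11 minus that on chromosome 3 ranged from 22.7 to 41.5 points in the haploid cells, with a median of 30.8. In the diploid cells it ranged from 3.68 to 20.1 points, with a median of 15.3. The lines did not overlap in this difference, but both chromosomes were chosen as the extremes of these same cells. Over all 19 autosomes, the SD of the share within a cell was 6.84 to 9.86 points in haploid cells. In diploid cells it was 2.30 to 6.73 points, so the ranges lay close to each other. Chromosomes were described by their GC content as well: it had an r with the mean share of 0.940 in haploid and 0.876 in diploid cells, and of 0.921 with the line difference, each over 19 autosomes that also differ in gene density.

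The deposited scores differed in the same way, and more strongly. The mean score of a chromosome, as the median over cells, ran from -0.288 on chromosome 3 to 0.205 on chromosome 11 in haploid cells. In diploid cells it stayed between -0.115 and -0.0655 on every autosome. Within a cell, the SD of this mean over the 19 autosomes was 0.0999 to 0.158 in haploid cells and 0.0120 to 0.0428 in diploid cells, without overlap. Over all cells with values, in any part of S phase, it was 0.0772 to 0.196 in 75 haploid and 0.0120 to 0.0428 in 63 diploid cells. Diploid chromosomes were thus nearly level in score in every cell, and haploid chromosomes in none. Per the study's methods, chromosomes with aneuploidy were brought to the level of control cells. The part of that step in these levels was not tested, and results across chromosomes are therefore given below also with states cut at the median score of each chromosome in each cell, which by construction makes all chromosomes equally replicated.

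**Figure D4:**
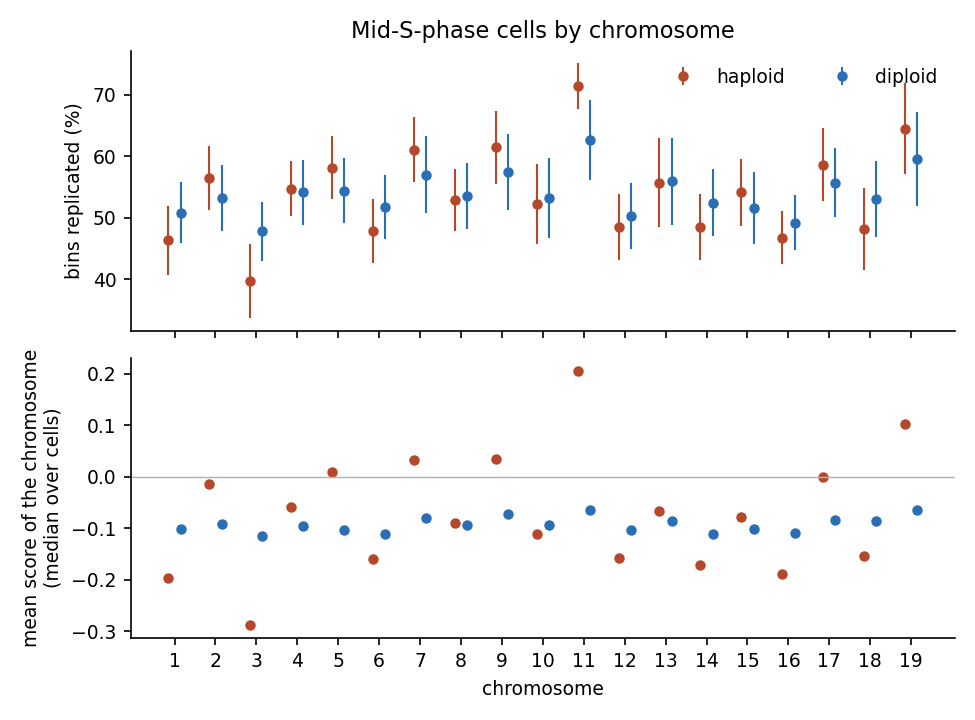
Upper panel, percentage of the bins of each autosome replicated, as mean ± SD over 25 haploid and 46 diploid cells; lower panel, mean score of each autosome as the median over the same cells, in the score's own units. Chromosome 11 is highest and chromosome 3 lowest in the upper panel for both lines. In the lower panel the diploid points stay between -0.115 and -0.0655 while the haploid points run from -0.288 to 0.205.

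The X chromosome, which the choice of cells did not use, had the lowest mean share replicated in both lines. Haploid cells had replicated 36.8% ± 6.47 of its 2700 bins and diploid cells 47.2% ± 5.23 (SD, n = 25 and n = 46). In diploid cells this was close to the 47.8% ± 4.78 of chromosome 3. The line difference of -10.4 points on the X chromosome was larger than on any autosome. Its median mean score was -0.355 in haploid and -0.108 in diploid cells, so the levelling of scores in the diploid line was present here too. On the X chromosome, 58 bins were at least 50 points higher in diploid cells and 0 were higher in haploid cells. The study names loss of the X chromosome as the most frequent karyotype change of its diploid cells, and it corrected aneuploid chromosomes. The part of these in the X values was not tested.

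Bins with the largest line differences were taken as those at least 50 percentage points apart. This limit was passed by 314 of 45112 autosomal bins, 0.696%. Haploid cells were higher in 44 bins, 0.0975%, and diploid cells in 270 bins, 0.599%. The single largest differences were -80.7 and 65.1 points. Chromosome 18 held 72 of the 270 bins higher in diploid cells, the most of any autosome, and chromosome 11 held 20 of the 44 bins higher in haploid cells. By the schedule from cells outside mid S phase, bins higher in diploid cells had a median time of 4.83 h and bins higher in haploid cells one of 5.91 h. With chromosome-median states, 39 bins were higher in haploid and 182 in diploid cells, of which 3 and 139 were among the bins above. The bins higher in haploid cells fell from a mean difference of 54.5 to 30.4 points with these states, and the bins higher in diploid cells moved from -58.3 to -50.8 points. The count of bins higher in haploid cells also rested on few cells: it was 77 without haploid plate row A, 86 without haploid row C, 69 without diploid row H, and 308 in a window of 45% to under 55%.

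Runs of at least 5 neighbouring bins past the limit formed 20 regions. In 19 of them, on 11 chromosomes and 250 to 1950 kb long, diploid cells were ahead, and in 1 haploid cells were ahead. With chromosome-median states, 10 of the 19 stayed past the limit, and the 1 region with haploid cells ahead did not. The differences of the 19 were then -62.6 to -39.3 points, with a median of -50.5, and all 19 kept their direction. The regions were found by this difference, so their shares describe the difference and do not support it. A cell was counted for a region when at least 50% of the region was replicated in it. By this count, the plate rows of the lines were fully apart in 8 of the 20 regions.

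The region with the largest difference lay on chromosome 18, from 3750001 to 5700000. At least 50% of it was replicated in 6 of 25 haploid cells, 24% (9.36% to 45.1%), and in 44 of 46 diploid cells, 95.7% (85.2% to 99.5%). Its mean score had a lowest, median and highest value of -1.01, -0.53 and 0.35 in haploid cells and of -0.71, 0.31 and 0.89 in diploid cells. The groups overlapped, but the haploid median lay below 0 and the diploid median above it. The share of cells was 0% to 50% in the haploid plate rows and 83.3% to 100% in the diploid plate rows, so no rows of the lines overlapped. With chromosome-median states the difference was -60.2 points.

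This region spans Lyzl1, Map3k8, Mtpap, Jcad, Svil, Zfp438 and Zeb1. Map3k8 is a kinase upstream of MAPK signalling, Mtpap is the mitochondrial poly(A) polymerase, Svil binds actin, and Zeb1 is a transcription factor of epithelial to mesenchymal transition. The bin with the starts of Map3k8 and Mtpap was replicated in 4 of 25 haploid cells and, counting each homolog as 0.5, in 44.5 of 46 diploid cells. The start of Zeb1, at the far end, was replicated in 4 haploid and 35 diploid cells. The start of Jcad, between them, was replicated in 10 haploid and 46 diploid cells. That haploid cells were behind from Lyzl1 to Zeb1 follows from how the region was chosen.

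On chromosome 13, from 56550001 to 57400000, a region with Tgfbi, Smad5, Gm45623 and Trpc7 was replicated in 5 haploid cells, 20% (6.83% to 40.7%), and in 43 diploid cells, 93.5% (82.1% to 98.6%). Smad5 transduces BMP signals, Tgfbi is an extracellular matrix protein and Trpc7 a cation channel. The lowest, median and highest scores were -1.01, -0.50 and 0.80 in haploid cells and -0.36, 0.40 and 1.27 in diploid cells. With chromosome-median states the difference was -59.96 points, and in plate rows the shares reached 50% in haploid cells and began at 50% in diploid cells.

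A second region of chromosome 18, from 62250001 to 63000000, was replicated in 7 haploid cells, 28% (12.1% to 49.4%), and in 45 diploid cells, 97.8% (88.5% to 99.9%). It holds Htr4, a serotonin receptor, Fbxo38, an F-box protein, the protease inhibitor genes Spink7, Spink10 and Spink13, Gm36368, Apcdd1, an inhibitor of Wnt signalling, and Napg, a factor of membrane fusion. In its plate rows the haploid cells reached 60% and the diploid cells began at 83.3%. The difference with chromosome-median states was -56.8 points.

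The region on chromosome 12 from 113850001 to 114300000 kept the largest later difference among the regions where diploid cells were ahead. It holds 23 V segments of the immunoglobulin heavy chain locus and no gene annotated as protein-coding. It was replicated in 3 haploid cells, 12% (2.55% to 31.2%), and in 38 diploid cells, 82.6% (68.6% to 92.2%). The scores had a lowest, median and highest value of -1.44, -0.85 and -0.02 in haploid cells and of -0.55, -0.01 and 0.59 in diploid cells. Among cells with 60% to under 80% replicated, it was 10.7% replicated in the haploid and 71.8% in the diploid line. The difference with chromosome-median states was -62.6 points. The plate rows overlapped, with 0% to 40% in haploid and 28.6% to 100% in diploid rows.

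On chromosome 16, from 45050001 to 45650000, a region was replicated in 4 haploid cells, 16% (4.54% to 36.1%), and in 36 diploid cells, 78.3% (63.6% to 89.1%). Its 10 protein-coding genes include Ccdc80, Slc35a5, Atg3, an enzyme of autophagy, Btla and Cd200, both immune receptors or ligands, Gm609, Gm17783 and Slc9c1. The scores had a lowest, median and highest value of -0.96, -0.68 and 0.42 in haploid cells and of -0.89, 0.17 and 1.22 in diploid cells. The difference with chromosome-median states was -62.4 points. In plate rows the shares reached 50% in haploid cells and began at 50% in diploid cells.

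The single region where haploid cells were ahead lay on chromosome 11, from 25750001 to 26250000, over the gene 5730522E02Rik, for which no role is given here. It was replicated in 19 haploid cells, 76% (54.9% to 90.6%), and in 7 diploid cells, 15.2% (6.34% to 28.9%). Its scores had a lowest, median and highest value of -0.53, 0.13 and 0.80 in haploid cells and of -1.26, -0.69 and 0.04 in diploid cells. With chromosome-median states the difference fell from 59.1 to 36.95 points, below the limit. This is the chromosome on which the haploid mean score was highest, and how much of the region's difference goes with the chromosome was not tested beyond that value. In plate rows the shares began at 50% in haploid cells and reached 50% in diploid cells. In cells with 60% to under 80% replicated, the region was replicated at 97.5% in the haploid and 13.8% in the diploid line.

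**Figure D5:**
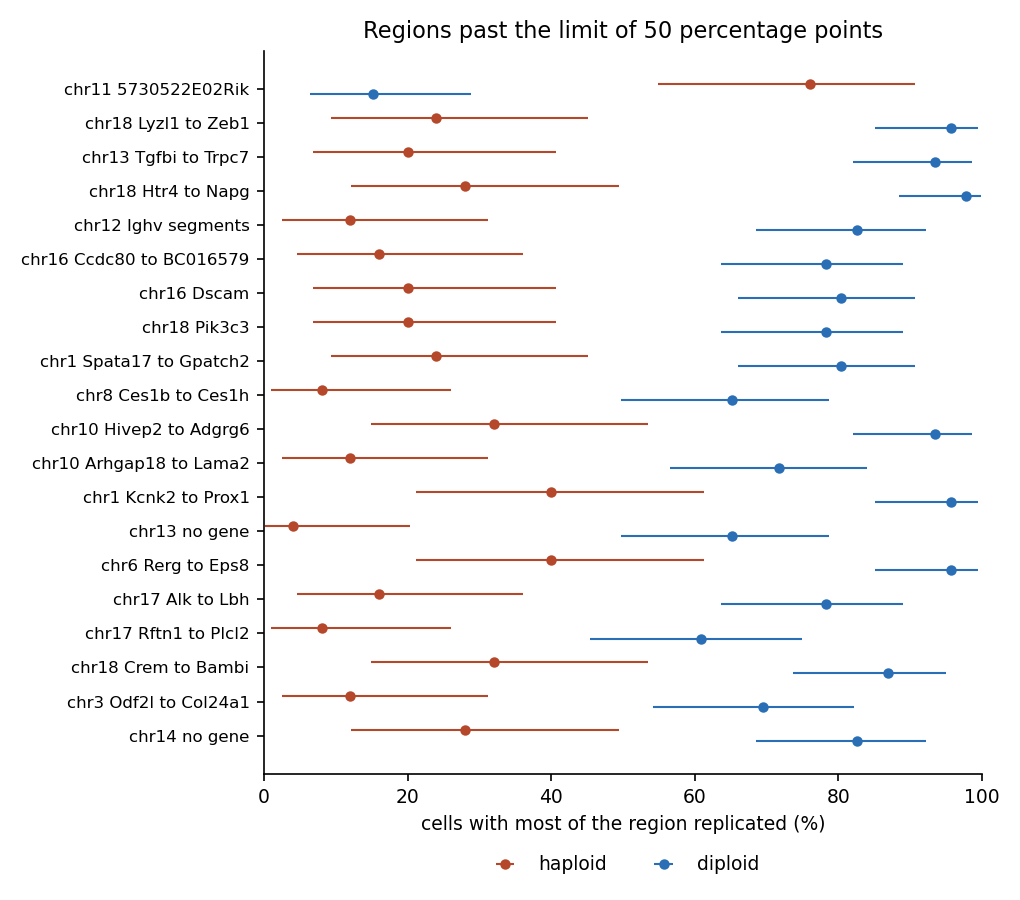
Percentage of haploid and diploid mid-S-phase cells in which at least 50% of each region was replicated, for the 20 regions past the limit, labelled by chromosome and by the first and last protein-coding gene; points are shares and bars exact 95% intervals over 25 and 46 cells. The region of chromosome 11 is the only one with the haploid point to the right. The distance between the points follows from how the regions were chosen.

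Cells that did not enter the choice of regions were examined for the same bins. Between 60% and under 80% replicated there were 28 haploid cells with a mean progression of 70.2% and 13 diploid cells with 63.5%, so the haploid cells were further advanced. All 19 regions in which diploid mid-S-phase cells were ahead had higher diploid shares here as well, with differences of -61.1 to -3.02 points and a median of -16.1. Of the 270 bins, 245 had the same direction, 90.7%, where 21.04% of all bins had higher diploid shares. Of the 44 bins higher in haploid cells, all 44 kept the direction, where 54.2% of all bins had higher haploid shares. These 44 bins had a median scheduled time of 5.91 h, where further progression by itself raises a share. Their direction here is thus not separated from the higher progression of the haploid cells. The 54.2% also counts bins near 0% or 100% in both lines, so it is no matched comparison. The cells from 60% to under 80% came from the same lines, and no label gives a batch, so they do not separate line from batch.

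Within diploid cells the homologs gave nearly the same picture, as follows from the binarization, which keeps both homologs alike unless parsed reads show asynchrony. Asynchronous bins made up 1.04% ± 1.81 of the bins (SD, n = 46). The median was 0.382%, and well F11 was highest at 8.58%. No asynchronous bin was found in 12 cells, and 8 cells with more than 2% held 71.9% of all asynchronous bins. They were concentrated by plate row: the median was 2.64% in the 6 cells of row H and 0% to 0.817% in the other diploid rows. Without row H the mean over cells was 0.756%. Bins with only the 129 homolog replicated made up 0.624% ± 1.05, and bins with only the Castaneus homolog replicated 0.416% ± 0.792. The former were more frequent in 29 cells and the latter in 5. By the study's methods, the score limit for calling the 129 homolog ahead was less strict than that for Castaneus. Reads of both homologs were mapped to mm10. The part of these steps in the 129 excess was not tested. Well F11 is also a member of the most similar pair. Without 1 cell of each pair with an r above 0.5, the mean was 0.879% ± 1.44 (SD, n = 44).

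The counts of bins past the limit were close for either homolog. Against the 129 homolog alone, 50 bins were higher in haploid and 269 in diploid cells, and against the Castaneus homolog alone the counts were 47 and 274. In the bins higher in diploid cells, the 129 homolog was replicated in 81.6% and the Castaneus homolog in 81.8% of cases, against 23.4% in haploid cells. The haploid cells are of strain 129, so the 129 homolog carries the like sequence in the other line. The default state shared by both homologs limits what this comparison can resolve.

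Genes were then described by the bin of their start. Of 19345 protein-coding genes, 30 passed the limit with a higher share in haploid cells, 0.155%, and 77 with a higher share in diploid cells, 0.398%. A lower limit of 20 points was passed by 887 genes, 4.59%, toward haploid and by 920 genes, 4.76%, toward diploid cells. With chromosome-median states these shares were 3.74% and 4.74%. For the median gene, 96% of haploid cells and 93.5% of diploid cells had replicated the start.

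Regulators of pluripotency, the genes that keep an mESC undifferentiated, had replicated in nearly every cell of both lines. Of 25 genes, 24 were at 90% of cells or more in haploid and 24 in diploid cells. This is 96% in each line, beside 66.2% and 61.9% of all genes. In the list 0 genes passed 20 points in either direction. With chromosome-median states 1 gene passed toward each line, Zfp42 at 22.8 points and Tbx3 at -21.7 points. Pou5f1, which encodes Oct4, had replicated in all 25 haploid cells and in 43 diploid cells. Among the largest differences were Tbx3 with 22 and 46 cells, Klf5 with 25 and 41.5 cells, and Zfp42, the marker Rex1, with 23 and 38 cells. Components of the LIF, MAPK and Wnt pathways, on which the culture medium acts, were described in the same way. Of 25 measured genes, 3 were past 20 points toward haploid cells, 12%, and 1 toward diploid cells, 4%, beside 4.59% and 4.76% of all genes. Under chromosome-median states there were 2 and 2.

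Of the Wnt factors, Tcf7l2 was replicated in 24 haploid and 29.5 diploid cells, and Lef1 in 14 haploid and 39.5 diploid cells. With chromosome-median states the difference at Tcf7l2 stayed at 35.5 points, and that at Lef1 shrank from -29.9 to -5.80 points. Axin2, a feedback inhibitor of the Wnt pathway, was replicated in 19 haploid and 24 diploid cells, a difference of 23.8 points that became 1.57 points with chromosome-median states. Spry2, an inhibitor of receptor tyrosine kinase signals, was replicated in 16 and 18.5 cells. The 4 genes thus did not share a direction.

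DNA replication genes were mostly replicated by mid S phase. Of 34 measured genes, 29 were at 90% of cells or more in haploid cells, 85.3%, and 26 in diploid cells, 76.5%, beside 66.2% and 61.9% of all genes. In this list 2 passed 20 points, both toward haploid cells, 5.88% beside 4.59% of all genes. Orc5, a subunit of the origin recognition complex, was replicated in 22 haploid and 25 diploid cells. Dbf4, the regulatory subunit of the Cdc7 kinase, was replicated in 23 haploid and 31 diploid cells, a difference of 24.6 points that became 1.65 points with chromosome-median states. Orc4 went the other way with 10 and 27 cells, and Orc3 was replicated in 24 and 38 cells. Of 73 ribosomal protein genes, 83.6% were at 90% of cells or more in haploid and 76.7% in diploid cells. Past 20 points there was 1 gene toward haploid cells, 1.37%, and 3 toward diploid cells, 4.11%, beside 4.59% and 4.76% of all genes. With chromosome-median states there were 3 and 4. Rpl22l1 was replicated in 9 haploid and 40 diploid cells, Rpl15 in 11 and 38.5, Rps12 in 13 and 40, and Rps20 in 25 and 32.

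Developmental genes were spread over S phase. Of 18 measured neural genes, 6 were at 90% of cells or more in haploid and 8 in diploid cells, and 4 were at 10% or less in each line. The shares at 90% or more were 33.3% and 44.4%, beside 66.2% and 61.9% of all genes. Neurog2, a proneural transcription factor, was replicated in 18 haploid and in 46 diploid cells. Map2, a microtubule protein of dendrites, was replicated in 4 haploid and 18 diploid cells, Gria2, a glutamate receptor subunit, in 10 and 8, and Neurog1 in 21 and 45.5. With chromosome-median states the difference at Neurog2 moved from -28 to -12 points and that at Map2 from -23.1 to -4.55 points, so neither stayed past 20 points. The difference at Gria2 rose from 22.6 to 34.3 points, and that at Neurog1 moved from -14.9 to -20.6 points. Past 20 points there was then 1 neural gene toward haploid and 1 toward diploid cells, in place of 1 and 2. Of 19 regulators of mesoderm, endoderm and trophoblast, 2 were past 20 points toward diploid cells, 10.5% beside 4.76% of all genes, and 0 toward haploid cells. These were T, the mesoderm factor Brachyury, with 9 and 27 cells, and Gata6, an endoderm factor, with 12 and 32.5 cells. Kdr, a VEGF receptor, was replicated in 18 and 40.5 cells, and Sox17, another endoderm factor, in 18 and 27. With chromosome-median states 3 genes were past 20 points toward diploid cells and 1 toward haploid cells, with T at -25.7 points and Gata6 no longer among them at -7.95 points.

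Clustered genes share bins and are not independent of each other. All 39 Hox genes, which pattern the body axis, lay in 13 bins. In both lines 30 of them were at 90% of cells or more, 76.9% beside 66.2% and 61.9% of all genes. The exception was the HoxD cluster on chromosome 2. It had 9 genes in 3 bins past 20 points toward diploid cells, 23.1% of the list beside 4.76% of all genes. Hoxd1 was replicated in 14 haploid and 38 diploid cells, and Hoxd10, Hoxd11 and Hoxd12 in 14 and 37. With chromosome-median states the same 9 genes were past 20 points. Imprinted genes are expressed from 1 parental allele. Among 24 of them, 2 were past 20 points toward diploid cells, 8.33% beside 4.76% of all genes. They are Peg10 and Sgce, which start side by side on chromosome 6 and were replicated in 12 haploid and 36 diploid cells. Igf2 was replicated in 24 and 36 cells and its neighbour H19 in 23 and 35.

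The replication-dependent histone genes, whose products package new DNA in S phase, were replicated in a median of 96% of haploid and 76.1% of diploid cells. Of 61 measured genes, 23 were past 20 points toward haploid cells, 37.7% beside 4.59% of all genes, but these lay in 4 bins of chromosome 13. Hist1h1d, Hist1h2ad and Hist1h2ae were replicated in all 25 haploid and in 35 diploid cells. Hist4h4, on chromosome 6, went the other way with 16 and 43 cells. With chromosome-median states, 0 of the 61 genes passed 20 points in either direction.

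Receptor gene families in late DNA were more often ahead in haploid cells. Olfactory receptor genes were replicated in a median of 28% of haploid and 19.6% of diploid cells. Of 1020 measured genes in 526 bins, 167 were past 20 points toward haploid cells, 16.4%, and 19 toward diploid cells, 1.86%, beside 4.59% and 4.76% of all genes. The 167 genes lay in 90 bins, with 39 genes on chromosome 9, 38 on chromosome 11 and 35 on chromosome 10. With chromosome-median states 65 genes, 6.37%, were past 20 points toward haploid cells, beside 3.74% of all genes. Olfr410 on chromosome 11 was replicated in 22 haploid and 17 diploid cells, Olfr401 in 14 and 4, and Olfr402 and Olfr403 in 16 and 7. At Olfr410 the difference shrank from 51.04 to 10.7 points with chromosome-median states.

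Vomeronasal receptor genes were replicated in a median of 48% of haploid and 26.1% of diploid cells. Of 200 measured genes, 36 were past 20 points toward haploid cells, 18%, and 4 toward diploid cells, 2%. Of all genes these shares were 4.59% and 4.76%. With chromosome-median states 47 genes, 23.5%, were past 20 points toward haploid cells and 1 toward diploid cells, beside 3.74% and 4.74% of all genes. Vmn1r59 and Vmn2r28 on chromosome 7 were replicated in 18 haploid and 8 diploid cells, Vmn1r61 in 17 and 7, and Vmn1r62 in 17 and 8. The reference lists 327 vomeronasal genes, and those without a used autosomal bin at their start are not among these counts.

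V segments of the antigen receptor loci were replicated in a median of 12% of haploid and 11.96% of diploid cells, and groups of them differed in both directions. Of 182 measured segments, 41 in 15 bins were past 20 points toward diploid cells, 22.5% beside 4.76% of protein-coding genes. All 41 lay on chromosome 12. With chromosome-median states 38 of the 41 were still past 20 points. Ighv14-3, Ighv16-1 and Ighv9-1 were replicated in 3 haploid and 38 diploid cells, and Ighv11-2 in 4 and 39. Toward haploid cells there were 12 segments, 6.59% beside 4.59% of protein-coding genes, with 10 of them on chromosome 6. With chromosome-median states 18 segments were past 20 points toward haploid cells, 9.89% beside 3.74%, and 10 of these were among the 12. These families are rich in near-identical copies and strain variants, and the part of read mapping in their values was not tested.

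Very long genes, of at least 500 kb, were replicated in a median of 30% of haploid and 25% of diploid cells. Of 212 measured starts, 82 were at 10% of cells or less in haploid cells, 38.7%, and 88 in diploid cells, 41.5%, beside 5.69% and 7.14% of all genes. Toward haploid cells 19 were past 20 points, 8.96%, and toward diploid cells 21, 9.91%, beside 4.59% and 4.76% of all genes. With chromosome-median states there were 17 and 16. Dscam, a neuronal adhesion molecule, was replicated in 6 haploid and 38 diploid cells, and Alk, a receptor tyrosine kinase, in 5 and 36. Dpp6, a subunit of potassium channels, was replicated in 18 and 16 cells, and 5730522E02Rik in 19 and 11. The long genes with the largest differences thus went both ways.

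Further clusters stood out past 50 points and were chosen after their values were seen. Of the 30 genes higher in haploid cells, 10 were keratin-associated protein genes in 3 bins of chromosome 11, replicated in 92% to 96% of haploid and 38.04% to 40.2% of diploid cells. With chromosome-median states their differences were 21.7 to 31.1 points. Of the 77 genes higher in diploid cells, 7 were carboxylesterase genes, Ces1b to Ces1h, side by side on chromosome 8 and replicated in 8% to 16% of haploid and 61.96% to 70.7% of diploid cells. With chromosome-median states they differed by -47.8 to -39.8 points.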

How the data were processed

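Single cells were sorted by DNA content, amplified as whole genomes and sequenced. No label names a plate. By their methods section, the authors mapped reads to mm10, counted them in 50 kb windows relative to the reads of the cell, corrected aneuploid chromosomes, divided by G1 and G2 control cells, masked extreme windows, centred and scaled each cell and smoothed it. After binarization they also removed outlier cells that were unlike all others, more of them diploid than haploid. The labels name haploid G1 cells as the normalization controls. The deposited score values are these smoothed profiles, and the deposited states are segments binarized by the authors, with a homolog changed only where parsed reads showed asynchrony. Submitters' processing notes name Bowtie2, SAMtools and bedtools.

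Of 52685 bins, 46743 autosomal bins had a state and set the progression of a cell. Comparisons used the 45112 with a state in every cell and a score in 50% or more of the cells in either line. A further 24 columns of cells that match no labelled sample were not used. T_width came from a sigmoid with starting values of 100, 0.7 and 0, in intervals of 0.1 h with at least 20 bins, against the percentile rank of the mean score of both lines weighted equally, without the cell itself, on 10 h. Gene starts and GC content came from GENCODE M21 and GRCm38, the build of the files, in which 0 bins passed a chromosome end. The genes named are those of up to 5 regions per direction, with at most 8 per region, and the 4 with the largest difference in each list. Python 3.11.15, NumPy 2.4.6, SciPy 1.17.1 and pandas 2.3.3 were used, and the measures were tested on simulated data. The members and lists were chosen with earlier results of these data known. No read depth is held in these values.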

Additional observations from a re-analysis of the deposited data

How the results depend on the processing

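Plate rows, homologs, the bins used, the way states were set, matching of progression and, for the schedule, its source were changed 1 at a time. Leaving out 1 cell of each diploid pair with an r above 0.4 was chosen after the data were seen. T_width, bins replicated ahead of schedule, pair disagreement and asynchronous bins kept their direction and stayed within the spread over cells in all alternatives run for them, with ranges of 0.0919 to 0.253 h, 0.0629 to 1.16 points, 1.03 to 1.41 points and 0.756% to 1.24%. The T_width difference was 0.141 to 0.216 h when 1 plate row was left out.

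The progression difference of -0.0353 points, set by the choice of cells, became 0.582 in a window of 45% to under 55%, 0.0745 and 0.0829 without 1 cell of each pair with an r above 0.5 or 0.4, and 0.0439 with the Castaneus homolog only. It ranged from -0.418 to 0.793 when 1 plate row was left out. The difference of 4.63 copy number shifts became -7.79 in the narrower window, -0.251 with the X chromosome, -109 with states from the median score of the cell and -0.401 matched in 4 strata of progression, and ranged from -19.0 to 16.02 over plate rows. The difference of -0.447 points in bins behind schedule became 0.308 with chromosome-median states and 0.165 with a schedule from cells outside mid S phase, and ranged from -0.698 to -0.125 over plate rows. The cause was not tested.

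The 314 bins past the limit became 717 in the narrower window, 862 at a limit of 40 points and 98 at one of 60 points, and 305 to 389 over plate rows. Fewer cells widen the spread of a share by construction. Matched in 4 strata, 119 bins were higher in haploid cells in place of 44, and 5 at a limit of 60 points. Depth is unknown, and with 25 haploid cells a share moves in steps of 4 points. No paired analysis was possible because the wells give each cell a name but pair no haploid cell with a diploid one.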
